A study of Mus musculus with 8 samples.

Results

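The Tex genes are mouse genes that were named only for being expressed in the testis, and they share a naming rule and not a sequence family. The members described here are the genes whose platform symbol is Tex followed by digits, without Tex101. The rule found 30 genes among the 19938 that had a single gene symbol, on 30 of 35512 transcript clusters. Where a gene has several clusters, the one read is chosen by its mean intensity over the 8 arrays, but each of the 30 had 1 cluster, so no measured value made a choice. The set was proposed with results of these arrays in view, so its counts describe the set. Symbols with other characters, such as Tex13a and Tex19.1, fall outside the rule.

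RNA came from round spermatids, the haploid cells that follow meiosis, purified on an albumin gradient from testes of adult C57BL/6 mice. They came in 4 genotypes of Piwil1, which encodes MIWI. Both alleles were null in MIWI -/-. In MIWI -/KI a null allele stood beside the knock-in one, in MIWI +/KI the wild-type allele stood beside the knock-in one, and in MIWI +/- it stood beside a null one. Every animal thus carried at least 1 altered allele, and homozygous wild-type spermatids were not analysed here. What the knock-in changes in MIWI is not described in the labels, while the series title concerns MIWI catalysis. Each genotype had 2 arrays labelled as biological replicates, each of spermatids pooled from gradient fractions. The sources used here do not say if an array stands for 1 animal. The p-values therefore cover the spread between preparations only.

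MIWI, a member of the PIWI family, carries piRNAs in spermatocytes and round spermatids, and mice without it are known to stop sperm formation at the round spermatid stage. Round spermatids transcribe many genes for structures that are assembled later, such as the flagellum and the condensed sperm nucleus. Known roles of Tex genes range over the whole course of spermatogenesis. Tex11, Tex12 and Tex15 act in meiosis, Tex14 builds the bridges between dividing germ cells, and Tex37 and Tex43 encode proteins found inside the doublet microtubules of the sperm tail. Tex2, Tex10, Tex261 and Tex264 are expressed in many tissues and serve the endoplasmic reticulum or the nucleolus.

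Piwil1 itself was read at 196 and 151 intensity units in MIWI -/-, 672 and 696 in MIWI -/KI, 680 and 749 in MIWI +/KI, and 389 and 371 in MIWI +/-. The MIWI -/- arrays were the lowest, and the sources used here do not say where the probes lie relative to the null allele's lesion. Array medians lay between 66.6 and 71.8 and lower quartiles between 32.5 and 34.1. Of 16 round spermatid markers, 7 fell in MIWI -/- against MIWI +/-, where 3.53% of all genes fell. Among the 7 were Tnp1 (-3.43), Tnp2 (-3.07), Prm2 (-2.85) and Prm1 (-2.83), the genes of transition proteins and protamines. The median difference of the 16 was -0.31 there, beside 0.01 over all genes. In MIWI -/KI against MIWI +/KI it was 0.001, beside -0.03 over all genes. There 4 of the 16 passed, all lower, where 1.29% of all genes fell. The summed intensity of these 16 markers, which follows the brightest of them, was 21929 and 20322 in MIWI -/-, 25141 and 24355 in MIWI -/KI, 36112 and 33909.5 in MIWI +/KI, and 45487 and 43512 in MIWI +/-. In such bulk samples, fewer cells of a type and less RNA per cell cannot be told apart. Over all clusters, MIWI -/KI replicate 2 stood apart, with r of 0.960 to 0.981 to the arrays of other genotypes and 0.970 to MIWI -/KI replicate 1, which correlated better with every array of another genotype (0.974 to 0.988). MIWI -/- replicate 2 correlated at 0.984 with MIWI -/- replicate 1 and at up to 0.987 with other genotypes. Without MIWI -/KI replicate 2, the Tex count in MIWI -/KI changed little against MIWI +/- and not at all against MIWI +/KI. The share of all genes past the threshold fell in both comparisons. MIWI -/KI then rests on 1 array, so the counts do not show how much replicate 2 matters.

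Of the 13 Tex genes that passed in a comparison between genotypes, 10 fell and 3 rose. In MIWI -/- against MIWI +/-, 11 of the 30 genes passed an adjusted p under 0.05 in limma (Benjamini-Hochberg over all 35512 clusters), 10 lower and 1 higher, where 6.13% of all genes passed, 3.53% lower and 2.6% higher. In MIWI -/KI against MIWI +/-, 10 passed, 8 lower and 2 higher, against 6.23% of all genes, 3.12% lower and 3.11% higher. In MIWI -/KI against MIWI +/KI, 4 passed, all lower, against 2.43% of all genes, 1.29% lower. The mean difference without against with a wild-type allele passed for 11, of which 8 were lower and 3 higher, against 8.26% of all genes, 3.93% lower and 4.33% higher. Of the 10 genes that fell, 4 did so against both MIWI +/- and MIWI +/KI (Tex35, Tex37, Tex44, Tex46), and 6 did not pass in MIWI -/KI against MIWI +/KI (Tex28, Tex43, Tex45, Tex48, Tex50, Tex55). The other 17 Tex genes never passed. The members' median log2 difference was -0.25 in MIWI -/- against MIWI +/-, beside 0.01 over all genes, and the range ran from -4.12 to 0.87. It was -0.15 in MIWI -/KI against MIWI +/- (all genes 0.00), 0.22 in MIWI -/KI against MIWI +/KI (all genes -0.03) and -0.03 for the mean difference without against with a wild-type allele (all genes -0.01). Both comparisons against MIWI +/- share its arrays, so their agreement is no separate evidence. The count in MIWI -/- was 7 without MIWI -/- replicate 2 (2.92% of all genes) or MIWI +/- replicate 1 (2.07%) or 2 (1.88%), and that in MIWI -/KI against MIWI +/- was 6 without MIWI +/- replicate 1 (1.81%) or 2 (1.73%). Without against with a wild-type allele it was 7 when MIWI -/- replicate 1 or any 1 of the 4 MIWI +/KI and MIWI +/- arrays was left out, beside 3.28% to 5.86% of all genes. In MIWI -/KI against MIWI +/KI it was 2 without MIWI +/KI replicate 1 (0.211%) or 2 (0.226%), and 10 without MIWI -/KI replicate 1, 5 in each direction, where 13.4% of all genes passed. Without MIWI -/- replicate 2 and MIWI -/KI replicate 1 together, the share of all genes grew as well. Then 11 Tex genes passed in MIWI -/- (8.75% of all genes) and 21 in MIWI -/KI (23.2%), both against MIWI +/-. In MIWI -/KI against MIWI +/KI 17 passed, 11 higher and 6 lower (28.8%), and 19 did for the mean difference without against with a wild-type allele (26.5%).

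**Figure D1:**
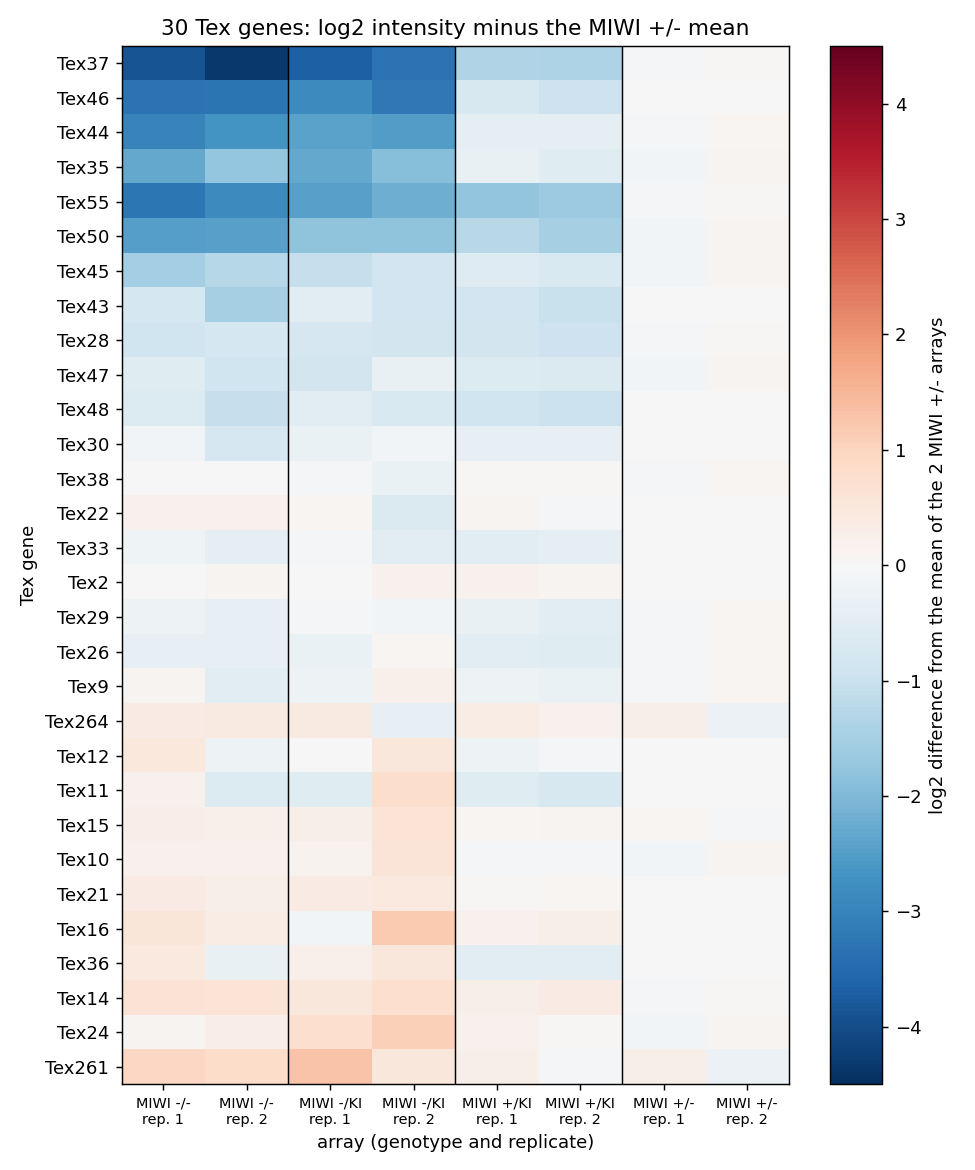
Log2 intensity of the 30 Tex genes (rows) in the 8 arrays (columns, by genotype and replicate), minus the gene's mean over the 2 MIWI +/- arrays; blue is lower and red is higher. Rows run from the lowest to the highest difference without against with a wild-type allele, from Tex37 (-3.13) to Tex261 (0.84), and the dark blue rows at the top are the 6 genes that fell most.

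Tex37, whose product lies inside the doublet microtubules of the sperm tail, had the largest fall of the set. It was read at 79.1 and 57.6 in MIWI -/-, 92.3 and 116 in MIWI -/KI, 459 and 449 in MIWI +/KI, and 1131 and 1223 in MIWI +/-. The 4 arrays without a wild-type allele stood below all others, and the MIWI +/KI arrays stood between them and MIWI +/-. Mean intensity was 68.4 ± 15.2 in MIWI -/- and 1177 ± 64.5 in MIWI +/- (SD, n = 2 each), a 17.4-fold fall (log2 difference -4.12, SE 0.20, adjusted p = 4.26e-05). The MIWI -/- values lay close to the median of their arrays. Tex37 also fell in MIWI -/KI, by 11.4-fold against MIWI +/- (-3.50, SE 0.20, adjusted p = 0.000157) and by 4.38-fold against MIWI +/KI (-2.13, SE 0.20, adjusted p = 0.00322). The last call was lost without either MIWI +/KI array (0.0598 without replicate 1, 0.0553 without replicate 2).

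Tex45, which in humans carries the name of a stabiliser of axonemal microtubules, followed the same order at a smaller size. Its intensities were 196 and 228 in MIWI -/-, 270.5 and 308 in MIWI -/KI, 372 and 352 in MIWI +/KI, and 512 and 614 in MIWI +/-, and no 2 genotypes overlapped. It fell by 2.65-fold in MIWI -/- (log2 difference -1.41, SE 0.17, adjusted p = 0.00288) and by 1.94-fold in MIWI -/KI (-0.96, SE 0.17, adjusted p = 0.0172), both against MIWI +/-. The second call was lost without either MIWI +/KI array (0.0585 without replicate 1, 0.0585 without replicate 2) or either MIWI +/- array (0.0779 without replicate 1, 0.168 without replicate 2), and with array weights (0.0576) and when the arrays of the compared genotypes were fitted alone (0.0839). Against MIWI +/KI, MIWI -/KI differed by -0.32, which did not pass (adjusted p = 0.396, 95% interval -0.71 to 0.06).

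Tex43, a second gene of the doublet microtubule interior, was read at 289 and 179 in MIWI -/-, 351 and 274 in MIWI -/KI, 273 and 248 in MIWI +/KI, and 513 and 489.9 in MIWI +/-. MIWI +/- was above every other array, while MIWI -/KI overlapped MIWI -/- and lay above MIWI +/KI. It fell by 2.2-fold in MIWI -/- (log2 difference -1.14, SE 0.24, adjusted p = 0.0376), and this call was lost without replicate 2 of MIWI -/- (0.147), either MIWI +/KI array (0.087 without replicate 1, 0.0869 without replicate 2) or either MIWI +/- array (0.216 without replicate 1, 0.194 without replicate 2), and when the arrays of the compared genotypes were fitted alone (0.0739). Tex33, another doublet protein gene, was read at 775 and 640.1 in MIWI -/-, 829.6 and 626 in MIWI -/KI, 618 and 641 in MIWI +/KI, and 888 and 867 in MIWI +/-. Its difference in MIWI -/- was -0.32 (SE 0.17, adjusted p = 0.481), and the arrays of MIWI -/-, MIWI -/KI and MIWI +/KI all lay below both MIWI +/- arrays.

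Other genes of the doublet interior were read from a list of 51 names, of which 30 were measured. They gave 6 falls and 1 rise in MIWI -/- against MIWI +/-, where 3.53% of all genes fell and 2.6% rose. The falls included Tepp (-1.58, SE 0.24), Fam166a (-1.34, SE 0.19), Dusp3 (-1.15, SE 0.17) and Spaca9 (-1.07, SE 0.20), with adjusted p between 0.00690 and 0.0244. The list's median was -0.01, beside 0.01 over all genes. In MIWI -/KI, 6 fell against MIWI +/-, where 3.12% of all genes fell. None of the 30 passed against MIWI +/KI, where 2.43% of all genes did.

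Tex46, Tex44 and Tex35 fell together with Tex37 in every comparison that removed the wild-type allele. Tex46 was read at 83.9 and 85.3 in MIWI -/-, 117 and 91.1 in MIWI -/KI, 508 and 444 in MIWI +/KI, and 842 and 838 in MIWI +/-. The 4 arrays without a wild-type allele lay at or under 117, and the other 4 at or above 444. Tex46 fell 9.93-fold in MIWI -/- against MIWI +/- (log2 difference -3.31, SE 0.17, adjusted p = 6.41e-05), 8.15-fold in MIWI -/KI against MIWI +/- (-3.03, SE 0.17, adjusted p = 0.000154) and 4.61-fold in MIWI -/KI against MIWI +/KI (-2.20, SE 0.17, adjusted p = 0.00145).

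Tex44 was read at 153 and 189 in MIWI -/-, 231 and 216 in MIWI -/KI, 913 and 905 in MIWI +/KI, and 1142 and 1304 in MIWI +/-. Its MIWI +/KI arrays were close to those of MIWI +/-, and the 4 arrays without a wild-type allele were far below both. The fall was 7.16-fold in MIWI -/- (log2 difference -2.84, SE 0.16, adjusted p = 0.000102) and 5.46-fold in MIWI -/KI (-2.45, SE 0.16, adjusted p = 0.000248), both against MIWI +/-. Against MIWI +/KI it was 4.07-fold in MIWI -/KI (-2.02, SE 0.16, adjusted p = 0.0016). For Tex44 and Tex46 these calls held under every alternative that was run.

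Tex35 was the one of these genes with no lower level in MIWI -/- than in MIWI -/KI. It was read at 429.8 and 641 in MIWI -/-, 434 and 559 in MIWI -/KI, 1673 and 1471 in MIWI +/KI, and 1972 and 2288 in MIWI +/-, and the arrays of MIWI -/- and MIWI -/KI overlapped. It fell 4.05-fold in MIWI -/- (log2 difference -2.02, SE 0.22, adjusted p = 0.00177) and 4.31-fold in MIWI -/KI (-2.11, SE 0.22, adjusted p = 0.00174), both against MIWI +/-. Against MIWI +/KI it fell 3.18-fold in MIWI -/KI (-1.67, SE 0.22, adjusted p = 0.0119), a call that was lost without either MIWI +/KI array (0.161 without replicate 1, 0.107 without replicate 2).

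**Figure D2:**
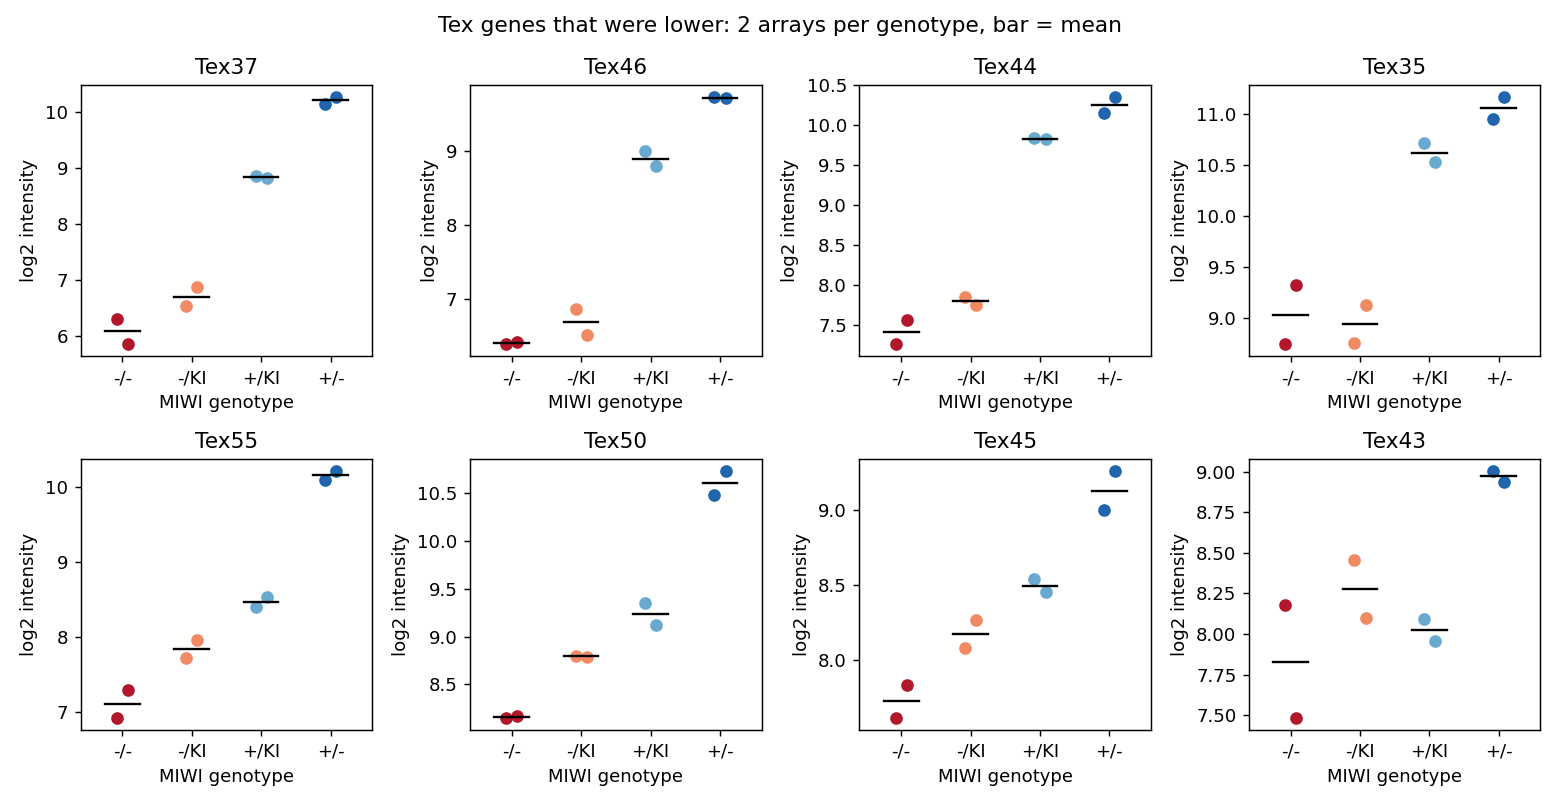
Log2 intensity of 8 Tex genes that fell, with a point for each of the 2 arrays of a genotype and a bar at their mean; each panel has its own vertical range. MIWI +/- is highest in all 8 panels, and the difference of MIWI +/KI from it runs from -0.42 for Tex44 to -1.69 for Tex55, with -1.37 for both Tex37 and Tex50.

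Tex55 and Tex50 were the Tex genes that passed in MIWI +/KI against MIWI +/-, where Tex37 differed by as much as Tex50 (-1.37 and -1.37) without passing (adjusted p = 0.0829). Tex55, which encodes an anchoring protein for type II protein kinase A, was read at 121 and 156 in MIWI -/-, 211 and 249 in MIWI -/KI, 336 and 371 in MIWI +/KI, and 1096 and 1191 in MIWI +/-. No 2 genotypes overlapped, and the MIWI +/KI arrays stood nearer to MIWI -/KI than to MIWI +/-. Tex55 fell 8.33-fold in MIWI -/- (log2 difference -3.06, SE 0.18, adjusted p = 0.000114), 4.99-fold in MIWI -/KI (-2.32, SE 0.18, adjusted p = 0.000499) and 3.23-fold in MIWI +/KI (-1.69, SE 0.18, adjusted p = 0.0444), each against MIWI +/-. MIWI -/KI differed from MIWI +/KI by -0.62 (adjusted p = 0.138, 95% interval -1.04 to -0.21).

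Tex50 had the same order, at 284 and 288 in MIWI -/-, 445 and 443 in MIWI -/KI, 655 and 556 in MIWI +/KI, and 1433 and 1705 in MIWI +/-. It fell 5.47-fold in MIWI -/- (log2 difference -2.45, SE 0.15, adjusted p = 0.000145), 3.52-fold in MIWI -/KI (-1.82, SE 0.15, adjusted p = 0.000628) and 2.59-fold in MIWI +/KI (-1.37, SE 0.15, adjusted p = 0.0444), each against MIWI +/-. MIWI -/KI differed from MIWI +/KI by -0.44 (adjusted p = 0.206). In MIWI +/KI against MIWI +/- the count was thus 2 of 30, where 0.0953% of all genes did, 0.0702% lower. For both genes this call had the same adjusted p and was lost without either MIWI -/- array (0.0587 without replicate 1, 0.0595 without replicate 2), either MIWI +/KI array (0.548 without replicate 1, 0.795 without replicate 2) or either MIWI +/- array (0.349 without replicate 1, 0.37 without replicate 2). It was also lost for Tex55 with arrays centred on their medians (0.072), with arrays quantile-normalized again (0.0556) and with the replicate block (0.0823), and for Tex50 with arrays centred on their medians (0.072), with arrays quantile-normalized again (0.0635) and with the replicate block (0.0823).

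Smaller differences were found for Tex48 and for Tex28, an X-linked gene. Tex48 was read at 973 and 724 in MIWI -/-, 1043 and 922 in MIWI -/KI, 796 and 764 in MIWI +/KI, and 1483 and 1502 in MIWI +/-. MIWI +/- was above all 6 other arrays, and MIWI +/KI overlapped MIWI -/-. It fell 1.78-fold in MIWI -/- against MIWI +/- (log2 difference -0.83, SE 0.16, adjusted p = 0.0291), and the call was lost without replicate 2 of MIWI -/- (0.117), either MIWI +/KI array (0.0815 without replicate 1, 0.0816 without replicate 2) or either MIWI +/- array (0.178 without replicate 1, 0.194 without replicate 2), and when the arrays of the compared genotypes were fitted alone (0.0725). In MIWI +/KI, which has a wild-type allele, Tex48 stood at -0.94 and Tex43 at -0.95 against MIWI +/-, beside -0.83 and -1.14 in MIWI -/-, and neither passed in MIWI +/KI (adjusted p = 0.111 and 0.20). Tex28 was read at 31.5 and 33.6 in MIWI -/-, 34.5 and 33.2 in MIWI -/KI, 33.0 and 31.1 in MIWI +/KI, and 56.2 and 61.6 in MIWI +/-. Its 6 arrays of the other genotypes lay between 31.1 and 34.5, near the lower quartile of each array, and only MIWI +/- stood above them. No signal above background is shown for these 6 arrays, so no fold is given. The log2 difference passed in MIWI -/- (-0.86, SE 0.13, adjusted p = 0.00956) and in MIWI -/KI (-0.80, SE 0.13, adjusted p = 0.0127), both against MIWI +/-, and was -0.88 in MIWI +/KI (adjusted p = 0.0848). The first call was lost without either MIWI -/- array (0.0551 without replicate 1, 0.0547 without replicate 2) or either MIWI +/- array (0.0607 without replicate 1, 0.103 without replicate 2), and the second without either MIWI +/- array (0.0754 without replicate 1, 0.121 without replicate 2), and with array weights (0.0531) and when the arrays of the compared genotypes were fitted alone (0.119). Without against with a wild-type allele it was -0.39 (adjusted p = 0.0481), lost without either MIWI -/- array (0.149 without replicate 1, 0.0912 without replicate 2), replicate 2 of MIWI -/KI (0.0578), either MIWI +/KI array (0.25 without replicate 1, 0.19 without replicate 2) or either MIWI +/- array (0.12 without replicate 1, 0.193 without replicate 2), and with array weights (0.0713) and with the replicate block (0.0862).

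Promoter letters of the 5 genes with the largest falls that RefSeq lists are shown because these genes fell most, although Tex50 did not pass in MIWI -/KI against MIWI +/KI as the other 4 did. They are the 250 bases before the listed start, written in the direction of transcription, build GRCm38.p6, for the first of 3 listed starts of Tex35 and the single start of each of the others. RefSeq promoters were matched for 24 of the 30 Tex genes, and Tex55 was not among them. Capitals mark matches, on either strand, to 4 motifs: the cAMP response element TGACGTCA, its half-site TGACG, the half-site GTTGCC of RFX factors, which drive cilium genes, and the MYB motif AACNGTC.
Tex37, chr6:70918923-70919172, minus strand: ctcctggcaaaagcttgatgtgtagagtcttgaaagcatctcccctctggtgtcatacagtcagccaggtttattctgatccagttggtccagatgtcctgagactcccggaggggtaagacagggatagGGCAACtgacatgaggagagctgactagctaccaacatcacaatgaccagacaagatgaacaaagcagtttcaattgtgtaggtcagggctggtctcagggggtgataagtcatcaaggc
Tex46, chr4:136610187-136610436, plus strand: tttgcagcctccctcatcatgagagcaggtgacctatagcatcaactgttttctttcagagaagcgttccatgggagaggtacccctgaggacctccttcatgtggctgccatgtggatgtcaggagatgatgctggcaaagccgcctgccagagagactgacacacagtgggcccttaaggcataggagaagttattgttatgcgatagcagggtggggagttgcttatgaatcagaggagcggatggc
Tex44, chr1:86426079-86426328, plus strand: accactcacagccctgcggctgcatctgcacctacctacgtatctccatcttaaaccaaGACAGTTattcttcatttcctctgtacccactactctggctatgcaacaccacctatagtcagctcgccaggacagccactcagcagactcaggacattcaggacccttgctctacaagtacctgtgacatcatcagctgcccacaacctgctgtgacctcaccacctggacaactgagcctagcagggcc
Tex35, chr1:157108659-157108908, minus strand: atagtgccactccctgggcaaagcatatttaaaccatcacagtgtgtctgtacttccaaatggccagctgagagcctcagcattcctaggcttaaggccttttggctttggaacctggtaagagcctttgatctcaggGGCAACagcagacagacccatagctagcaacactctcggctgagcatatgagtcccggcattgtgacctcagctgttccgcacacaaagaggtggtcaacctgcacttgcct
Tex50, chr1:161159315-161159564, minus strand: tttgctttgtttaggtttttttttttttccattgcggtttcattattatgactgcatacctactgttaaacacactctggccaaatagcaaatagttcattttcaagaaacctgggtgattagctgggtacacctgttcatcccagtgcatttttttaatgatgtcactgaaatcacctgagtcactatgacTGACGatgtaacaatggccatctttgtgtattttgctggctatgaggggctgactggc
The RFX half-site lies on the strand opposite to the printed one in Tex37, 120 to 115 bases before the start. In Tex35 it is also on the opposite strand, 112 to 107 bases before the start. The TGACG half-site stands on the printed strand of Tex50, 58 to 54 bases before the start. The MYB match of Tex44 is on the opposite strand, 191 to 185 bases before the start, and Tex46 has none of the 4.

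Over all 24 matched Tex genes, TGACGTCA was found in 0, beside 1.77% of 27025 genes in the promoter table. TGACG was found in 1 of 24 beside 19.8%, GTTGCC in 5 beside 11.8%, and AACNGTC in 3 beside 7.62%. The 5 with GTTGCC were Tex9, Tex33, Tex35, Tex36 and Tex37, of which Tex35 and Tex37 fell and the other 3 did not pass. The 3 with AACNGTC were Tex21, Tex44 and Tex47. A TGACG match is part of any TGACGTCA match, so these shares are not independent.

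Among the rises, Tex14, which encodes a component of the intercellular bridges that join germ cells, passed in 3 comparisons. It was read at 809.9 and 797 in MIWI -/-, 731 and 873 in MIWI -/KI, 614 and 659.9 in MIWI +/KI, and 501 and 529.7 in MIWI +/-. The 4 arrays without a wild-type allele lay above the 4 with one, and MIWI +/KI lay above MIWI +/-. Tex14 rose 1.56-fold in MIWI -/- (log2 difference 0.64, SE 0.14, adjusted p = 0.0468) and 1.55-fold in MIWI -/KI (0.63, SE 0.14, adjusted p = 0.0479), both against MIWI +/-, and 1.4-fold in the 4 arrays without a wild-type allele against the 4 with one (0.48, SE 0.10, adjusted p = 0.0296). The call in MIWI -/- was lost without either MIWI -/- array (0.118 without replicate 1, 0.157 without replicate 2), either MIWI +/KI array (0.138 without replicate 1, 0.138 without replicate 2) or either MIWI +/- array (0.288 without replicate 1, 0.227 without replicate 2), and with arrays centred on their medians (0.0786), when the arrays of the compared genotypes were fitted alone (0.0737) and with arrays quantile-normalized again (0.0588). That in MIWI -/KI was lost without either MIWI -/- array (0.0613 without replicate 1, 0.062 without replicate 2), replicate 2 of MIWI -/KI (0.11), either MIWI +/KI array (0.14 without replicate 1, 0.141 without replicate 2) or either MIWI +/- array (0.301 without replicate 1, 0.225 without replicate 2), and with array weights (0.123), with arrays centred on their medians (0.0775), when the arrays of the compared genotypes were fitted alone (0.205), with arrays quantile-normalized again (0.0596) and with the replicate block (0.0509). The call for the last of the 3 was lost without either MIWI -/- array (0.0732 without replicate 1, 0.0598 without replicate 2), either MIWI +/KI array (0.185 without replicate 1, 0.134 without replicate 2) or either MIWI +/- array (0.136 without replicate 1, 0.11 without replicate 2). Of 9 other bridge genes, none passed in any comparison, and their median in MIWI -/- against MIWI +/- was 0.14, beside 0.01 over all genes.

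Tex24 and Tex261 were the other genes that rose. Tex24 was read at 939.7 and 1064 in MIWI -/-, 1441 and 1794 in MIWI -/KI, 967 and 895 in MIWI +/KI, and 782 and 934 in MIWI +/-, and the MIWI -/KI arrays were the highest. It rose 1.88-fold in MIWI -/KI against MIWI +/- (log2 difference 0.91, SE 0.16, adjusted p = 0.0185), while MIWI -/- differed from MIWI +/- by 0.23 (adjusted p = 0.647). The call was lost without replicate 2 of MIWI -/KI (0.0627), either MIWI +/KI array (0.0546 without replicate 1, 0.0546 without replicate 2) or either MIWI +/- array (0.162 without replicate 1, 0.0725 without replicate 2), and with array weights (0.055) and when the arrays of the compared genotypes were fitted alone (0.0794). Without against with a wild-type allele Tex24 was at 0.51 (SE 0.11, adjusted p = 0.0392), lost without either MIWI -/- array (0.0642 without replicate 1, 0.0949 without replicate 2), replicate 2 of MIWI -/KI (0.0653), either MIWI +/KI array (0.149 without replicate 1, 0.193 without replicate 2) or either MIWI +/- array (0.158 without replicate 1, 0.0814 without replicate 2), and with arrays centred on their medians (0.0548) and with arrays quantile-normalized again (0.0545). Tex261, whose yeast relative helps proteins leave the endoplasmic reticulum, was read at 1248 and 1165 in MIWI -/-, 1607 and 941 in MIWI -/KI, 787 and 627 in MIWI +/KI, and 781 and 555 in MIWI +/-. Each array without a wild-type allele was above each array with one, although the MIWI -/KI replicates differed by 1.71-fold. It rose 1.79-fold without against with a wild-type allele (log2 difference 0.84, SE 0.19, adjusted p = 0.0412), a call lost without either MIWI -/- array (0.123 without replicate 1, 0.0892 without replicate 2), either MIWI +/KI array (0.0977 without replicate 1, 0.171 without replicate 2) or either MIWI +/- array (0.0626 without replicate 1, 0.154 without replicate 2), and with arrays quantile-normalized again (0.0633).

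**Figure D3:**
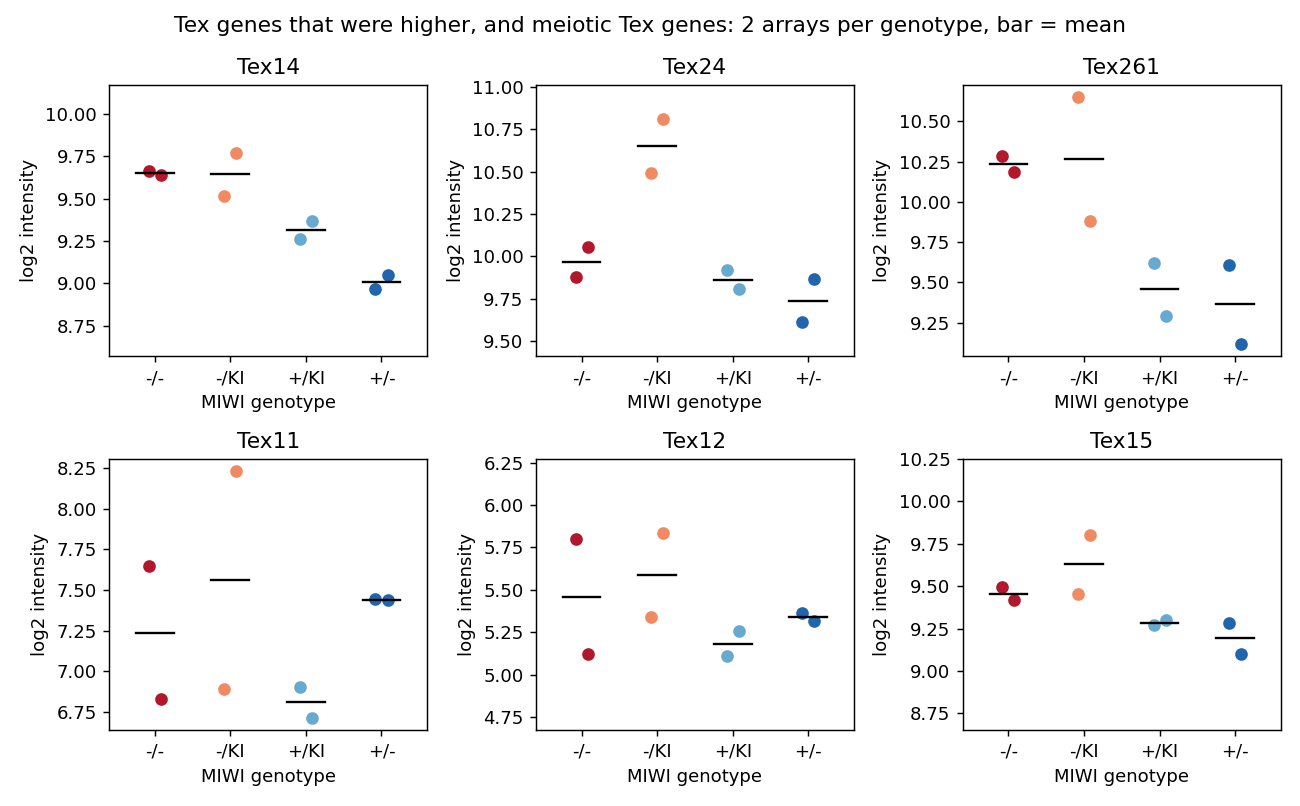
Log2 intensity of the 3 Tex genes that rose (Tex14, Tex24, Tex261) and of 3 meiotic Tex genes (Tex11, Tex12, Tex15), with a point for each of the 2 arrays of a genotype and a bar at their mean; each panel has its own vertical range. Tex14 and Tex261 are higher in the 4 arrays without a wild-type allele, and Tex11 spreads widely within MIWI -/- and MIWI -/KI.

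None of the meiotic Tex genes passed in any comparison. Tex11, an X-linked gene needed for crossovers, was read at 200.1 and 114 in MIWI -/-, 119 and 300.3 in MIWI -/KI, 119.7 and 105 in MIWI +/KI, and 174 and 173 in MIWI +/-. Its highest array was MIWI -/KI replicate 2 and its lowest MIWI +/KI replicate 2. Tex12, of the central element of the synaptonemal complex, was read at 55.7 and 34.8 in MIWI -/-, 40.5 and 57.2 in MIWI -/KI, 34.5 and 38.2 in MIWI +/KI, and 41.3 and 39.8 in MIWI +/-, which is below the array medians throughout. Tex15, needed for meiotic recombination and for piRNA-directed silencing in fetal germ cells, was read at 721 and 684 in MIWI -/-, 702 and 892 in MIWI -/KI, 617 and 630.5 in MIWI +/KI, and 623 and 549 in MIWI +/-. Against MIWI +/-, Tex15 stood at 0.26 in MIWI -/- (adjusted p = 0.542) and 0.44 in MIWI -/KI (adjusted p = 0.217). X-linked Tex16 was read at 134 and 115 in MIWI -/-, 84.4 and 207 in MIWI -/KI, 104 and 112 in MIWI +/KI, and 90.1 and 93.9 in MIWI +/-, again highest in MIWI -/KI replicate 2.

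Of 22 measured genes of the synaptonemal complex and crossovers, 1 passed in MIWI -/- against MIWI +/-, where 6.13% of all genes did. It was the fall of Syce2 (-1.49, SE 0.21, adjusted p = 0.00706). Syce2 encodes a partner of TEX12 in the central element. The list's median was 0.11 in MIWI -/- and 0.28 in MIWI -/KI, each against MIWI +/-, beside 0.01 and 0.00 over all genes. Summed intensity of 16 spermatocyte markers was 9222 and 7537 in MIWI -/-, 7758 and 9815 in MIWI -/KI, 6695 and 7073 in MIWI +/KI, and 7450.4 and 6906 in MIWI +/-. MIWI -/KI replicate 2 and MIWI -/- replicate 1 were thus highest for these markers, as they were for Tex11, Tex12 and Tex16, and the part of other cells in these values was not tested. Of the 16 markers, 1 passed in MIWI -/- against MIWI +/-, Piwil2 (0.99, SE 0.14), beside the same 6.13% of all genes. A single call in each list is no result about that list.

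Replicates of the 2 genotypes without a wild-type allele lay further apart than those with one. In MIWI -/-, 5 of 30 Tex genes differed by over 1.5-fold between the replicates, beside 4.49% of all genes, and in MIWI -/KI 5 of 30 did, beside 12.8%. In MIWI +/KI and MIWI +/-, 0 of 30 did, beside 0.150% and 0.717%. Within MIWI -/- these were Tex11, Tex12, Tex30, Tex36 and Tex43, each lower in replicate 2. Within MIWI -/KI, Tex11 (2.53-fold) and Tex16 (2.46-fold) were higher in replicate 2, and Tex22, Tex261 and Tex264 were lower in it.

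**Figure D4:**
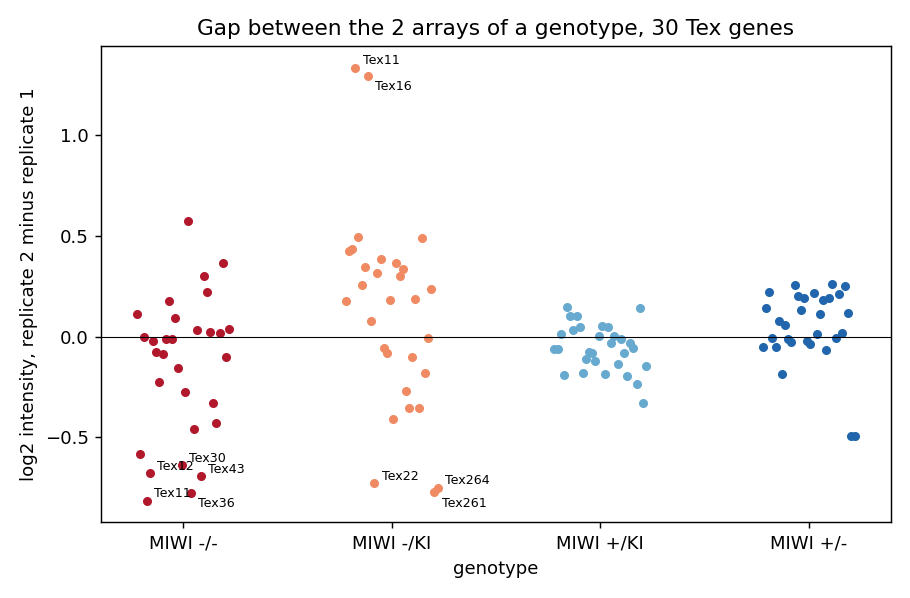
Log2 intensity of replicate 2 minus replicate 1 for the 30 Tex genes (points) in each genotype; named points differ by over 1.5-fold. The gaps reach 1.34 in MIWI -/KI and -0.81 in MIWI -/-, both for Tex11, and are at most 0.49 in size in MIWI +/KI and MIWI +/-.

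Of the Tex genes with broad expression, Tex261 is described above, and Tex2, Tex10 and Tex264 did not pass in any comparison. Tex2, which acts in lipid transfer at the endoplasmic reticulum, was read at 2173 and 2346 in MIWI -/-, 2136 and 2416 in MIWI -/KI, 2426 and 2325 in MIWI +/KI, and 2168 and 2091 in MIWI +/-, and its difference in MIWI -/- against MIWI +/- was 0.08 (95% interval -0.17 to 0.34, adjusted p = 0.879). Tex264, a receptor for autophagy of the endoplasmic reticulum, stood at 0.38 (95% interval -0.23 to 0.99, adjusted p = 0.629). It was read at 413 and 424 in MIWI -/-, 422 and 251 in MIWI -/KI, 406 and 366 in MIWI +/KI, and 382 and 271 in MIWI +/-, with its 2 lowest arrays in MIWI -/KI and MIWI +/-. Tex10, of a nucleolar complex for ribosome assembly, was read at 1764 and 1764 in MIWI -/-, 1697 and 2296 in MIWI -/KI, 1469 and 1483 in MIWI +/KI, and 1419 and 1654 in MIWI +/-, and stood at 0.20 (95% interval -0.17 to 0.57, adjusted p = 0.701).

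Some other genes listed for these compartments passed in MIWI -/- against MIWI +/-, where 6.13% of all genes did, 3.53% lower and 2.6% higher. Of 19 genes for turnover and contact sites of the endoplasmic reticulum, 5 fell and 1 rose in MIWI -/- against MIWI +/-, with a median of 0.05 beside 0.01 over all genes. Atl3, an atlastin that shapes the network (-2.08, SE 0.14), Pdzd8 (-1.51, SE 0.17), Gabarapl1 (-1.38, SE 0.17) and the turnover receptor gene Retreg1 (-1.23, SE 0.14) fell, with adjusted p between 0.000222 and 0.00309. Of 9 partners of TEX10, 1 passed, the rise of Pelp1 (1.05, SE 0.19, adjusted p = 0.0202), and the list's median was 0.33. A single call among 9 genes is too few to read as a change of the complex. None of the 9 passed in MIWI -/KI against MIWI +/KI.

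The remaining members did not pass in any comparison. In MIWI -/- against MIWI +/-, Tex47 (-0.73), Tex30 (-0.44), Tex26 (-0.37), Tex29 (-0.29) and Tex9 (-0.17) were on the lower side. Tex21 (0.31), Tex22 (0.19), Tex36 (0.05) and Tex38 (0.02) were on the higher side, all with adjusted p of at least 0.111. Tex38 encodes the partner of a palmitoyltransferase of spermatids and was read at 1342 and 1373 in MIWI -/-, 1299 and 1079 in MIWI -/KI, 1378 and 1379 in MIWI +/KI, and 1258 and 1428 in MIWI +/-, with MIWI -/KI replicate 2 lowest and the other arrays between 1258 and 1428.

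The comparison of MIWI -/KI with MIWI -/- asks whether the knock-in allele changes anything when no wild-type allele is present. No Tex gene passed in limma, and none of all genes did (0%). At an unadjusted p under 0.05 there were 6 of 30, all higher in MIWI -/KI, beside 4.55% of all genes, 2.41% higher. These were Tex55 (0.74), Tex24 (0.68), Tex50 (0.64), Tex37 (0.62), Tex45 (0.45) and Tex44 (0.39), each with an adjusted p of 0.998. For each of the 6, both MIWI -/KI arrays stood above both MIWI -/- arrays. Picking the genes by this same comparison favours that, so it adds no support. Tex21, Tex26, Tex29 and Tex46, which were not picked, also stood above, and Tex22 and Tex38 stood below. The 95% interval was 0.33 to 1.16 for Tex55 and 0.16 to 1.08 for Tex37, unadjusted for the number of genes.

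MIWI +/KI set against MIWI +/- compares a knock-in with a null allele, each beside a wild-type one. Beyond Tex50 and Tex55, 11 more Tex genes had an unadjusted p under 0.05, which makes 13 of 30, beside 11.7% of all genes, and all 13 were lower in MIWI +/KI, as were 5.55% of all genes. Among them were Tex37 (log2 difference -1.37, SE 0.20, adjusted p = 0.0829), Tex48 (-0.94, SE 0.16, adjusted p = 0.111), Tex28 (-0.88, SE 0.13, adjusted p = 0.0848) and Tex46 (-0.82, SE 0.17, adjusted p = 0.147), none of which passed. In a fit of the 4 arrays of these genotypes alone, whose replicates lay closer together, 13 Tex genes passed, as did 7.39% of all genes. The members' median was -0.42, beside 0.02 over all genes.

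Over genotype means, 6 genes ran from low to high in the order MIWI -/-, MIWI -/KI, MIWI +/KI, MIWI +/-: Tex37, Tex44, Tex45, Tex46, Tex50 and Tex55. Another 6 ran in the order MIWI +/KI, MIWI -/-, MIWI -/KI, MIWI +/-: Tex9, Tex26, Tex28, Tex29, Tex33 and Tex48. Of the neighbours in the first order, MIWI -/KI and MIWI -/- differed past the threshold for none of its 6 genes, MIWI -/KI and MIWI +/KI for Tex37, Tex44 and Tex46, and MIWI +/KI and MIWI +/- for Tex50 and Tex55. MIWI -/KI had the highest mean for 9 of the 30 genes and MIWI +/- for 16. The lowest mean was that of MIWI -/- for 9, MIWI -/KI for 3, MIWI +/KI for 10 and MIWI +/- for 8. Orders were not counted over all genes, so whether these counts are particular to the Tex genes was not tested.

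The effect of losing the wild-type allele was then compared between the 2 settings, with a null and with a knock-in allele beside it. No Tex gene passed this test of the difference, while 13 of 30 had an unadjusted p under 0.05, beside 13% of all genes. All 13 had a less negative or more positive difference in the knock-in setting, as did 6.32% of all genes. This difference equals MIWI -/KI against MIWI -/- minus MIWI +/KI against MIWI +/-, both described above. It is thus no separate evidence. For Tex55 these 2 parts were 0.74 and -1.69. The lowest adjusted p values were for Tex55 (log2 difference 2.43, SE 0.25, adjusted p = 0.0711), Tex50 (2.01, SE 0.22, adjusted p = 0.0711) and Tex37 (1.99, SE 0.28, adjusted p = 0.0787). For Tex55 the difference was -3.06 in MIWI -/- against MIWI +/-, and the difference in MIWI -/KI against MIWI +/KI was -0.62. For Tex35 these differences were -2.02 and -1.67 (0.35, SE 0.31, adjusted p = 0.743). Without MIWI -/- replicate 1, 5 Tex genes and 1.21% of all genes passed, the 5 being Tex37 (adjusted p = 0.0381), Tex55 (0.0381), Tex50 (0.0386), Tex48 (0.0401) and Tex43 (0.0479). Without MIWI -/KI replicate 1, Tex50 and Tex55 passed (adjusted p = 0.0496 for both), as did 0.241% of all genes.

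**Figure D5:**
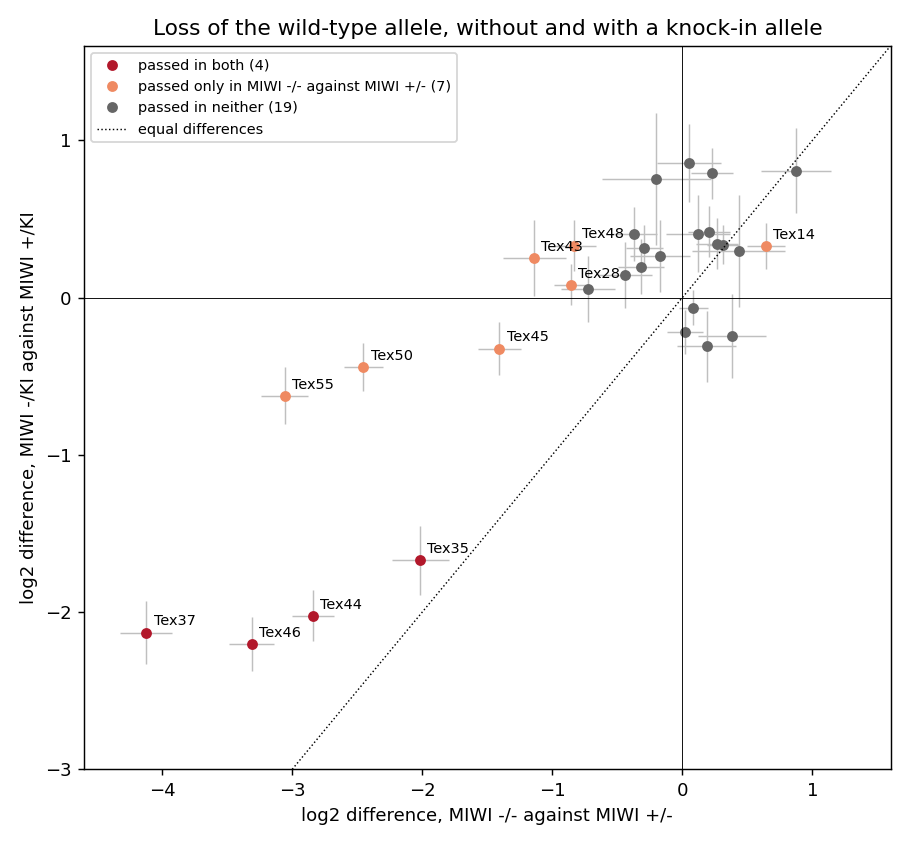
Log2 difference of each Tex gene in MIWI -/KI against MIWI +/KI (vertical) and in MIWI -/- against MIWI +/- (horizontal), which share no array; grey lines are limma's SE and the dotted line marks equal differences. Tex35, Tex37, Tex44 and Tex46 passed in both, while Tex50 and Tex55 passed on the horizontal axis and lie at -0.44 and -0.62 on the vertical one.

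Markers of somatic cells and other germ cells were read beside these results. In MIWI -/- against MIWI +/-, 3 of 17 Sertoli cell markers fell and 0 rose, where 3.53% of all genes fell and 2.6% rose. The summed intensity of the 17 was 2071 and 1656 in MIWI -/-, 1940.1 and 1554 in MIWI -/KI, 2241 and 2694 in MIWI +/KI, and 3021 and 2859 in MIWI +/-. For macrophages and blood 3 of 10 fell, for spermatogonia 1 of 15 rose, for peritubular, vascular and stromal cells 1 of 13 rose, and for Leydig cells 0 of 7 passed. Their summed intensities spanned 1499.6 to 2535, 4591 to 5799.8, 1609 to 2100.0 and 433 to 1106 over the 8 arrays. Median differences in MIWI -/- against MIWI +/- were -0.33 for Sertoli cells, -0.15 for macrophages and blood and 0.03 for spermatogonia. They were -0.03 for peritubular, vascular and stromal cells and 0.32 for Leydig cells, beside 0.01 over all genes. The part of these cells in the Tex differences was not tested.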

How the data were processed

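RNA of 8 round spermatid preparations, 2 for each of 4 Piwil1 genotypes, was read on Affymetrix arrays. The deposited values are linear intensities per transcript cluster, made with RMA per the submitters' processing notes, with no version in the sources used here. Log2 of each intensity was taken, and 8 cells of 8 clusters with a lost decimal separator, none in a Tex gene, were treated as missing. Gene names came from the platform annotation; 21789 of 35512 clusters had 1 symbol. A linear model with 1 mean per genotype was fitted to all 8 arrays and 35512 clusters in limma 3.58.1 under R 4.3.3 (lmFit, eBayes with intensity trend). Its two-sided p-values were adjusted over all clusters after Benjamini and Hochberg, and 0.05 was the threshold. The fit had 4 residual and 3.98 prior degrees of freedom, and precision is limited by there being 2 arrays per genotype. The script was tested on simulated data. Levels of different genes are not compared, since each has its own probes. Every Tex gene past the threshold was to be named, as were those with the highest and lowest levels, the meiotic and the broadly expressed ones, and up to 4 genes of each list. The members and lists were chosen with earlier results of these data known. The alternatives were other scalings, a pseudocount of 16, no dim clusters, other variance models, a replicate block and arrays left out. With 1 array left in a genotype, it is assumed to vary like the others.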

Additional observations from a re-analysis of the deposited data

How the results depend on the processing

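Across the alternatives, 3910 of 4126 values of a Tex gene in a comparison kept their direction where called and their side of the threshold, 107 lost and 109 gained a call, and 0 reversed. Most of these values were not called in the main fit, and such values counted as kept whenever they stayed uncalled. The total therefore does not measure how stable the calls were. Leaving out each array in turn gave, against MIWI +/-, 7 to 13 called Tex genes in MIWI -/-, 6 to 14 in MIWI -/KI and 0 to 2 in MIWI +/KI. It gave 2 to 10 in MIWI -/KI against MIWI +/KI, 7 to 15 without against with a wild-type allele, 0 to 5 for the difference between the differences, and 0 in each case in MIWI -/KI against MIWI -/-. The count of MIWI -/KI against MIWI +/- was 6 with array weights, 6 with only its own groups in the fit, and 21 with MIWI -/- replicate 2 and MIWI -/KI replicate 1 left out together. That joint omission gave 17 in MIWI -/KI against MIWI +/KI, 19 without against with a wild-type allele, 13 in MIWI +/KI against MIWI +/-, and 3 for the difference between the differences. MIWI +/KI against MIWI +/- gave 13 with array weights, 13 with only its own groups, 4 with dim clusters left out, and 0 with arrays centred on their medians, quantile-normalized again or with the replicate block. The difference between the differences gave 3 with dim clusters left out, beside 1.5% of the genes then tested. The share of all genes called also moved in these fits and in those with arrays left out, so a moved Tex count is not by itself a result about the Tex genes. For MIWI +/KI against MIWI +/- this share was 9.02% with array weights, 7.39% with only its own groups and 1.04% with dim clusters left out. The causes of these moves were not tested. Same-numbered arrays of different genotypes deviated from their group means with correlations of -0.26 to 0.30. The sources used here do not say if they share an animal, litter or day, and these correlations cannot settle it. With the replicate block, the calls numbered 12 in MIWI -/- (5.85% of all genes) and 10 in MIWI -/KI (5.74%), both against MIWI +/-. They numbered 4 in MIWI -/KI against MIWI +/KI (1.96%) and 10 for the mean difference without against with a wild-type allele (7.7%). With 2 arrays per genotype the median SE of a Tex difference was 0.17 on the log2 scale, and Tex28 and Tex12 lay below the array medians, where small differences are hard to read.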
